A study of Mus musculus with 16 samples.

Results

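The genes described here are the 8 troponin genes Tnnt1, Tnnt2, Tnnt3, Tnni1, Tnni2, Tnni3, Tnnc1 and Tnnc2 and the 2 sarcomeric actin genes Actc1 and Acta1, taken from whole-heart microarrays of mouse embryos. They were chosen by symbol: every probe set whose annotation named 1 gene only and whose symbol was among the 10 was kept, which gave 1 probe set for each of the 10 genes, out of 19937 genes read by 21640 such probe sets and 34760 probe sets in all. The study compared 4 groups of 4 hearts, each heart from a separate embryo on a C57Bl/6 J background. At E13.5 and at E11.5, mutant hearts were labelled Chd7fl/fl;Mesp1Cre and control hearts WT. In the mutants both floxed copies of Chd7, which encodes an ATP-dependent chromatin remodeller, were deleted by a Cre expressed from the Mesp1 locus, which acts in the anterior mesoderm that gives rise to myocardium and endocardium and leaves cells of neural crest origin with intact Chd7. The cross named in the labels, Chd7fl/+;Mesp1-Cre with Chd7fl/fl, yields no embryo without a floxed allele, whereas the study's methods give the control hearts as Chd7+/+;Mesp1-Cre, so the exact control genotype and the presence of Cre in it are not settled. The values are log2 expression values after robust multi-array averaging (RMA). A gene was called changed at a limma adjusted p under 0.05 together with a log2 difference over 0.5 in size.

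Troponin sits on the actin thin filament of striated muscle and makes contraction depend on calcium. Troponin T anchors the complex to tropomyosin, troponin I inhibits the actin and myosin interaction at rest, and troponin C binds the calcium that lifts this inhibition. Each subunit has isoforms from separate genes: Tnnt2, Tnni3 and Tnnc1 encode the cardiac forms, with Tnnc1 shared by slow skeletal muscle, Tnni1 and Tnnt1 encode the slow skeletal forms, and Tnnt3, Tnni2 and Tnnc2 encode the fast skeletal forms. Tnni1 is the main troponin I of the fetal heart and gives way to Tnni3 around birth. Actc1 encodes cardiac alpha-actin and Acta1 skeletal alpha-actin, which the developing heart expresses beside Actc1. Several of the genes lie beside a partner of the other subunit: in the RefSeq annotation Tnni3 and Tnnt1 on chromosome 7 have 0 genes between them, Tnni1 and Tnnt2 on chromosome 1 have 1 gene, and Tnni2 and Tnnt3 on chromosome 7 have 2 genes.

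RefSeq promoter sequences of GRCm38.p6, each of 300 bases around an annotated start, matched 8 of the 10 genes with 10 entries in all. Those of Tnnt1, the member whose level differed by stage under every setting tried, of its cardiac counterpart Tnnt2 (the first of 2 entries) and of the 2 actin genes, whose isoforms are contrasted, are shown 5′ to 3′ on the strand of the gene. Capitals mark matches on either strand to a CArG box (the site of serum response factor), to the M-CAT motif CATTCCT (the site of TEAD factors) and to TATAAA.
Tnnt1, chr7:4515926-4516225, minus strand: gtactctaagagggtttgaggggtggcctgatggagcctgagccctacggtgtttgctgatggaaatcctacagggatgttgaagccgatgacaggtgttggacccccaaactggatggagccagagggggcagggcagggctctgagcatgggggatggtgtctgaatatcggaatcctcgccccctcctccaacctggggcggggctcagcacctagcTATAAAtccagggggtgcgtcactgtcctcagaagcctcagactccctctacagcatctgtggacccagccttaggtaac
Tnnt2, chr1:135836084-135836383, plus strand: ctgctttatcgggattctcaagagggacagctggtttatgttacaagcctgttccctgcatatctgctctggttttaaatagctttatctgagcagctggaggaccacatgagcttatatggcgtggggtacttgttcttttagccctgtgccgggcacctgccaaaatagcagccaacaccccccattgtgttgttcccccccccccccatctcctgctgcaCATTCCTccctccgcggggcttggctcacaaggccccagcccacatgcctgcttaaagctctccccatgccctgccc
Actc1, chr2:114052826-114053125, minus strand: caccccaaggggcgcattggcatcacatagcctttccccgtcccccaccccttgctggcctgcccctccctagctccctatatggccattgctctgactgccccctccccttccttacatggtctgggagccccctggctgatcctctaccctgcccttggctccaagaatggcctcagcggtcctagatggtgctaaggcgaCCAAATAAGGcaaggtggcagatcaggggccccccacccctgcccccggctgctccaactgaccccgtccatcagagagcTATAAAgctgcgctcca
Acta1, chr8:123894726-123895025, minus strand: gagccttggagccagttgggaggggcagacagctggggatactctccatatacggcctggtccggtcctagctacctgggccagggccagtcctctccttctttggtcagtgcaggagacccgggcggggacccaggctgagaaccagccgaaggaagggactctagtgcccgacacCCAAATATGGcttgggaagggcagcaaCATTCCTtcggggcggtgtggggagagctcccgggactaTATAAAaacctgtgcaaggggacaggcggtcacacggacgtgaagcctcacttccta
A CArG box was found in 2 of the 10 entries, those of Actc1 and Acta1, and in 1.63% of all 32851 promoters of this length. M-CAT was found in 2 entries, Tnnt2 and Acta1, against 5.36% of all promoters, and TATAAA in 3 entries, Actc1, Tnnt1 and Acta1, against 13.6%. The binding site of MEF2 factors was searched too and matched 0 of the 10 entries, against 0.557% of all promoters. The matches do not overlap each other, and they describe the letters only.

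Across the series, the standard deviation (SD) of the values within an array was 2.38 to 2.42 at E13.5 and 2.18 to 2.26 at E11.5. Chd7 itself was read by the brightest of its 30 single-gene probe sets, and the others are not given here. This probe set was lower in mutant hearts, at 8.88 to 9.07 against 9.83 to 10.30 in control hearts at E13.5 (log2 difference -1.08, limma adjusted p = 0.0209). At E11.5 it was at 9.16 to 9.73 against 10.64 to 10.89 (-1.29, adjusted p = 0.00132), and both differences fit the labels. The 12 cardiomyocyte markers examined were all bright, with a mean of 12.77 to 12.86 in mutant and 12.82 to 12.88 in control hearts at E13.5, and 12.47 to 12.63 in mutant and 12.52 to 12.58 in control hearts at E11.5. The 20 skeletal muscle markers averaged 6.91 to 7.36 in mutant and 6.71 to 7.13 in control hearts at E13.5, and 7.05 to 7.18 in mutant and 6.93 to 7.14 in control hearts at E11.5, and 7 of them, Myf5, Myf6, Myog, Pax3, Myh3, Chrna1 and Chrnd, lay in the dimmest 40% of probe sets. The 3 hearts that stood apart from the other hearts of their stage were replicate 4 of the E11.5 mutants, with 40 probe sets more than 1 log2 unit above all of them, replicate 3 of the E11.5 mutants, with 28, and replicate 1 of the E13.5 controls, with 22. A whole heart is a mixture of tissues, so fewer cells of a type and less RNA per cell cannot be told apart in any of these values.

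Between mutant and control hearts no troponin or sarcomeric actin gene was called at either stage, a count near the low background share. At E13.5, 0 of the 10 genes were called between mutant and control hearts by limma, against a background of 0.0555% of all single-gene probe sets, and 1, Tnnt1, had an unadjusted p under 0.05 (background 4.00%). At E11.5, 0 of the 10 were called (background 0.397%) and 0 had an unadjusted p under 0.05 (background 9.55%). The median difference over the 10 genes was -0.03 at E13.5 and -0.02 at E11.5, and over all single-gene probe sets 0.0043 and 0.0028. Mutant and control hearts did not overlap for 1 gene at E13.5, Tnnc2, where 4.21% of all single-gene probe sets did not overlap, and for 0 genes at E11.5, where 4.03% did not.

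**Figure D1:**
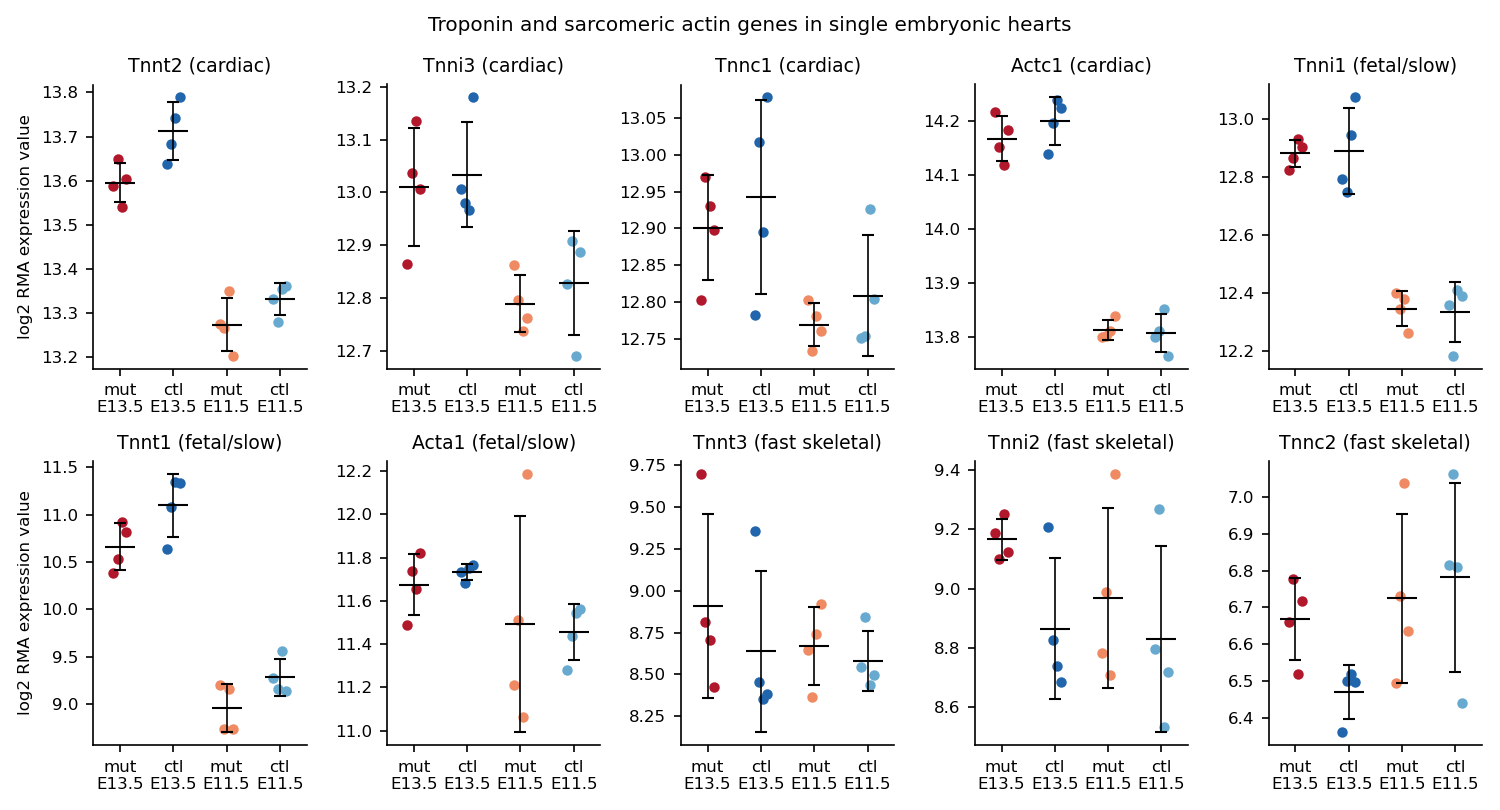
Log2 RMA expression values (y axis, scaled separately for each gene and not starting at 0) of the 10 genes in each heart (points), by group on the x axis (mut, mutant; ctl, control), with the group mean and SD (black, n = 4). Tnnt1 lies between 8.74 and 9.56 in the E11.5 hearts and between 10.38 and 11.34 in the E13.5 hearts, whereas mutant and control hearts of a stage overlap for all genes but Tnnc2 at E13.5.

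The 4 cardiac isoforms differed little between genotypes, and so did Tnni1 of the fetal and slow isoforms. Cardiac troponin T (Tnnt2, probe set 10350173) was at 13.59, 13.65, 13.54 and 13.60 in mutant hearts and at 13.64, 13.68, 13.74 and 13.79 in control hearts at E13.5, and at 13.28, 13.27, 13.35 and 13.20 in mutant hearts and 13.33, 13.28, 13.35 and 13.36 in control hearts at E11.5. The mutant hearts lay at the lower end at both stages but overlapped the control hearts, with differences of -0.12 (95% confidence interval -0.28 to 0.04) at E13.5 and -0.06 (-0.22 to 0.10) at E11.5. Cardiac alpha-actin (Actc1, probe set 10485982) was at 14.22, 14.15, 14.12 and 14.18 in mutant hearts and 14.14, 14.20, 14.24 and 14.22 in control hearts at E13.5. At E11.5 it was at 13.80, 13.80, 13.81 and 13.84 in mutant hearts and 13.80, 13.81, 13.85 and 13.76 in control hearts. The Actc1 hearts of a stage were thus interleaved, and the differences were -0.03 (-0.18 to 0.12) at E13.5 and 0.01 (-0.15 to 0.16) at E11.5. Cardiac troponin I (Tnni3, probe set 10559558) differed by -0.02 (-0.21 to 0.17) at E13.5 and by -0.04 (-0.23 to 0.15) at E11.5. The troponin C of heart and slow muscle (Tnnc1, probe set 10413726) ran from 12.80 to 12.97 in mutant and 12.78 to 13.08 in control hearts at E13.5, and from 12.73 to 12.80 in mutant and 12.75 to 12.93 in control hearts at E11.5. Its hearts overlapped at both stages. Tnnc1 differed by -0.04 (-0.23 to 0.14) at E13.5 and by -0.04 (-0.22 to 0.15) at E11.5. For these 4 genes the intervals stay within 0.28 log2 units of 0 at both stages. A change of these values past the size threshold of 0.5 lies outside them, while some smaller changes do not. All 4 probe sets lay above the 99th percentile of brightness, where RMA can compress differences. The intervals thus describe the array values and set no limit on a change in transcripts.

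Among the fetal and slow isoforms, Tnni1 (probe set 10350149) did not separate the genotypes: it was at 12.83, 12.87, 12.93 and 12.91 in mutant hearts and at 12.80, 12.75, 12.95 and 13.08 in control hearts at E13.5, with a difference of -0.01 (95% interval -0.20 to 0.19). At E11.5 it was at 12.40, 12.34, 12.38 and 12.26 in mutant hearts and at 12.36, 12.18, 12.41 and 12.39 in control hearts, with a difference of 0.01 (-0.19 to 0.21). Slow skeletal troponin T, Tnnt1 (probe set 10559547), gave the largest difference between genotypes of the 10 genes at both stages. It was at 10.38, 10.53, 10.92 and 10.82 in mutant hearts and at 10.63, 11.08, 11.34 and 11.34 in control hearts at E13.5. Of the 4 control hearts 3 lay above every mutant heart, and replicate 1 lay among the mutant hearts. The difference at E13.5 was -0.44 (SE 0.18, 95% interval -0.81 to -0.06), or 74.0% of the control level, with an unadjusted limma p of 0.0272 and an adjusted p of 1.00. At E11.5 Tnnt1 was at 9.20, 8.74, 9.16 and 8.74 in mutant hearts and at 9.27, 9.16, 9.56 and 9.14 in control hearts. There, 2 mutant hearts lay below every control heart and 2 among them, with a difference of -0.32 (SE 0.18, -0.70 to 0.05), or 79.9% of the control level (adjusted p = 0.607). The Tnnt1 difference kept its sign under every alternative tried, between -0.59 (without control replicate 1) and -0.34 at E13.5 and between -0.40 and -0.23 at E11.5, and was called under none of them.

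Skeletal alpha-actin (Acta1, probe set 10582592) was at 11.49, 11.74, 11.65 and 11.82 in mutant hearts and at 11.73, 11.68, 11.75 and 11.77 in control hearts at E13.5, a difference of -0.06 (95% interval -0.44 to 0.33). At E11.5 it was at 11.21, 11.51, 11.06 and 12.19 in mutant hearts and at 11.28, 11.44, 11.55 and 11.56 in control hearts. Mutant replicate 4, 1 of the hearts that stood apart, held the highest Acta1 value of the 16 hearts. The E11.5 difference was 0.04 (-0.35 to 0.42), and without that heart it was -0.20.

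Among the fast skeletal isoforms, Tnnt3 had the widest intervals of the 10 genes (SE 0.26). Fast troponin I (Tnni2, probe set 10559200) was at 9.19, 9.10, 9.25 and 9.12 in mutant hearts and at 9.21, 8.83, 8.74 and 8.69 in control hearts at E13.5. All control hearts but replicate 1 lay below every mutant heart, with a difference of 0.30 (95% interval -0.06 to 0.67). At E11.5 Tnni2 was at 8.78, 8.99, 8.71 and 9.39 in mutant hearts and at 8.80, 9.27, 8.53 and 8.72 in control hearts, which overlapped, with a difference of 0.14 (-0.23 to 0.50). Fast troponin C (Tnnc2, probe set 10489545), the dimmest of the 10 probe sets at the 45.1st percentile of all probe sets, was at 6.66, 6.78, 6.52 and 6.72 in mutant hearts and at 6.36, 6.50, 6.52 and 6.50 in control hearts at E13.5. Every mutant heart lay above every control heart, though the nearest values were 6.52 in both, and the difference was 0.20 (-0.09 to 0.48, adjusted p = 1.00). At E11.5 the Tnnc2 hearts overlapped, at 6.50 to 7.04 in mutants and 6.44 to 7.06 in controls, and differed by -0.06 (-0.34 to 0.23). Fast troponin T (Tnnt3, probe set 10559221) was at 9.70, 8.82, 8.71 and 8.42 in mutant hearts and at 9.36, 8.46, 8.36 and 8.38 in control hearts at E13.5. A single heart of each genotype, replicate 1 in both, lay well above the other 3. The Tnnt3 difference at E13.5 was 0.27 (-0.27 to 0.82), and it was 0.51 without control replicate 1 and 0.01 without mutant replicate 1. At E11.5 Tnnt3 was at 8.65, 8.37, 8.74 and 8.92 in mutant hearts and at 8.54, 8.84, 8.44 and 8.50 in control hearts, with a difference of 0.09 (-0.46 to 0.64). The 20 skeletal muscle markers averaged 6.91 in mutant replicate 1 and 7.05 in control replicate 1, the hearts with high Tnnt3, within the range of the E13.5 hearts of both genotypes (6.71 to 7.36). Marker by marker the hearts differed: mutant replicate 1 was the highest of its group for 1 of the 20 and the lowest for 5. Control replicate 1 was the highest of its group for 9: Myod1, Myf5, Myf6, Myog, Chrna1, Actn3, Ryr1, Atp2a1 and Mymk. Of these, Myf5, Myf6, Myog and Chrna1 lay in the dimmest 40% of probe sets. Control replicate 1 was the lowest for 4: Mylpf, Myh8 and the bright Ckm and Casq1. Mutant replicate 2, with Tnnt3 at 8.82, was the highest of its group for 15 of the 20 and the lowest for 4. The part of skeletal muscle in the Tnnt3 values was not tested.

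**Figure D2:**
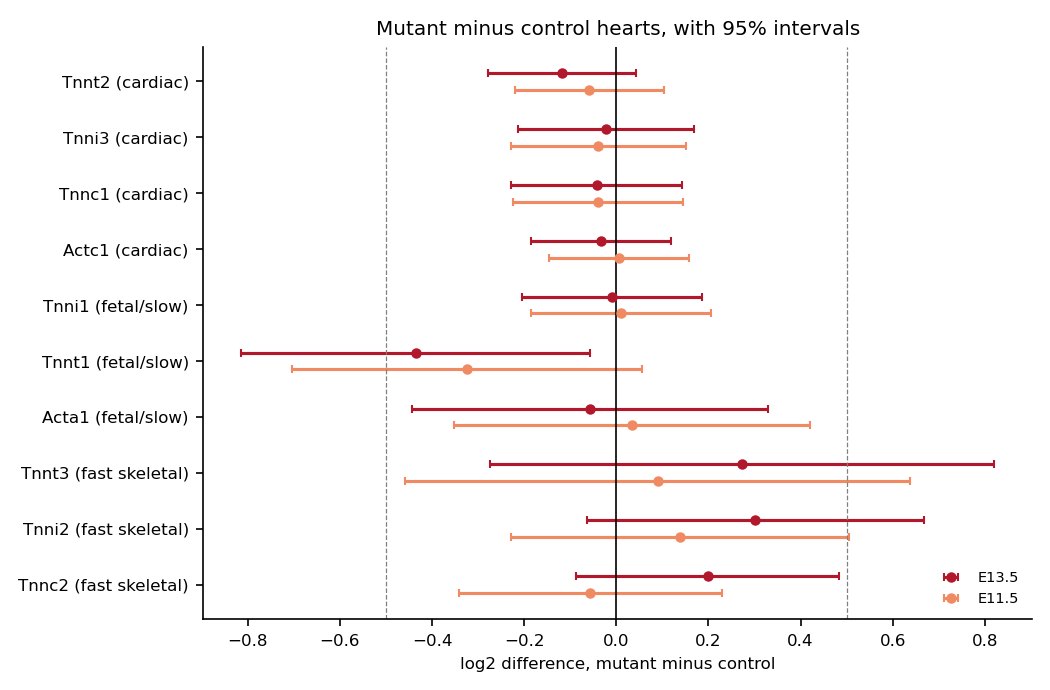
Log2 difference of mutant minus control hearts (x axis) for the 10 genes (y axis) at E13.5 (upper point of each pair) and E11.5 (lower point), with 95% confidence intervals and the size threshold of 0.5 as dashed lines. The intervals of the 4 cardiac genes and of Tnni1 stay within 0.28 of 0, and that of Tnnt1 at E13.5 is the only interval that leaves out 0.

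The difference of the mutant effect between stages, tested as the effect at E13.5 minus the effect at E11.5, was called for 0 of the 10 genes by limma, with 0 at an unadjusted p under 0.05, where 0.00% of all single-gene probe sets were called and 3.96% had an unadjusted p under 0.05. The estimates ran between -0.11 (Tnnt1, 95% interval -0.65 to 0.43) and 0.26 (Tnnc2, -0.15 to 0.66).

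Between stages, Tnnt1 and Tnni1 were called higher at E13.5 in both genotypes with the values as deposited, a count near the background share. Acta1, grouped with them in the figures as fetal or slow, was not called, and only Tnnt1 was called under every setting tried. In mutant hearts 2 of the 10 genes, Tnnt1 and Tnni1, were called higher at E13.5 than at E11.5 (background 17.2%) and 0 were called lower (background 12.7%). In control hearts the same 2 genes were called higher (background 16.7%) and 0 lower (background 12.5%). At an unadjusted limma p under 0.05, 5 genes were higher in mutants (background 30.8%) and 0 lower (background 21.9%), and in controls 5 were higher (background 30.3%) and 1, Tnnc2, was lower (background 21.5%). With no threshold on size, 4 genes had an adjusted p under 0.05 in mutants, all higher (background 26.8%), and 4 in controls (background 26.2%), Actc1 and Tnnt2 joining Tnnt1 and Tnni1 in both. E13.5 and E11.5 hearts did not overlap, with E13.5 higher, for 5 genes in mutants (background 24.6%) and 6 in controls (background 26.7%): Tnnt2, Tnni3, Actc1, Tnni1 and Tnnt1 in both, and Acta1 in controls. The median stage difference over the 10 genes was 0.23 in mutants and 0.24 in controls, and over all single-gene probe sets it was 0.04 in both.

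Tnnt1 rose most. Its E13.5 hearts, at 10.38 to 10.92 in mutants and 10.63 to 11.34 in controls, all lay more than 1 log2 unit above its E11.5 hearts of the same genotype, at 8.74 to 9.20 in mutants and 9.14 to 9.56 in controls. The rise was 1.71 (SE 0.18, adjusted p = 5.18e-06) in mutant hearts, or 3.26-fold, and 1.82 (SE 0.18, adjusted p = 3.12e-06) in control hearts, or 3.52-fold. It was called under all 28 alternatives in each genotype, at 1.46 to 1.80 in mutants and 1.57 to 1.97 in controls. Its neighbour Tnni3 was at 12.86, 13.04, 13.13 and 13.01 in mutant and 13.01, 12.98, 12.97 and 13.18 in control hearts at E13.5, and at 12.86, 12.80, 12.74 and 12.76 in mutant and 12.83, 12.91, 12.69 and 12.89 in control hearts at E11.5. The stage difference of Tnni3 was 0.22 in mutants (adjusted p = 0.0588) and 0.21 in controls (adjusted p = 0.0782), past the threshold in neither.

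Tnni1, the fetal troponin I, was 0.54 higher at E13.5 in mutants (SE 0.09, adjusted p = 0.000331, 1.45-fold) and 0.56 higher in controls (SE 0.09, adjusted p = 0.000253, 1.47-fold), with the stages apart in each genotype. Actc1 was 0.36 higher in mutants (adjusted p = 0.00114) and 0.39 in controls (adjusted p = 0.000541), and Tnnt2 0.32 (adjusted p = 0.00332) and 0.38 (adjusted p = 0.00106), all under the size threshold. Tnnc1 differed by 0.13 in both genotypes (adjusted p = 0.238 in mutants and 0.228 in controls). The values of these bright genes, all above the 99th percentile of brightness, depended on how the arrays were scaled, and the spread of values within an array was wider at E13.5. With each array centred and scaled to a common SD, Tnni1 was 0.16 higher in mutants and 0.18 in controls and no longer called, whereas Actc1 was at -0.13 and -0.09, Tnnt2 at -0.12 and -0.06, Tnni3 at -0.18 and -0.19, and Tnnc1 at -0.27 and -0.26. Tnni1 also fell under the size threshold with quantile normalisation (0.38 in mutants and 0.40 in controls), with cyclic loess (0.34 and 0.33) and, in controls, without E13.5 replicate 5 (0.49). Whether hearts of both stages were hybridised and normalised together is not given, so stage and array run cannot be told apart.

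**Figure D3:**
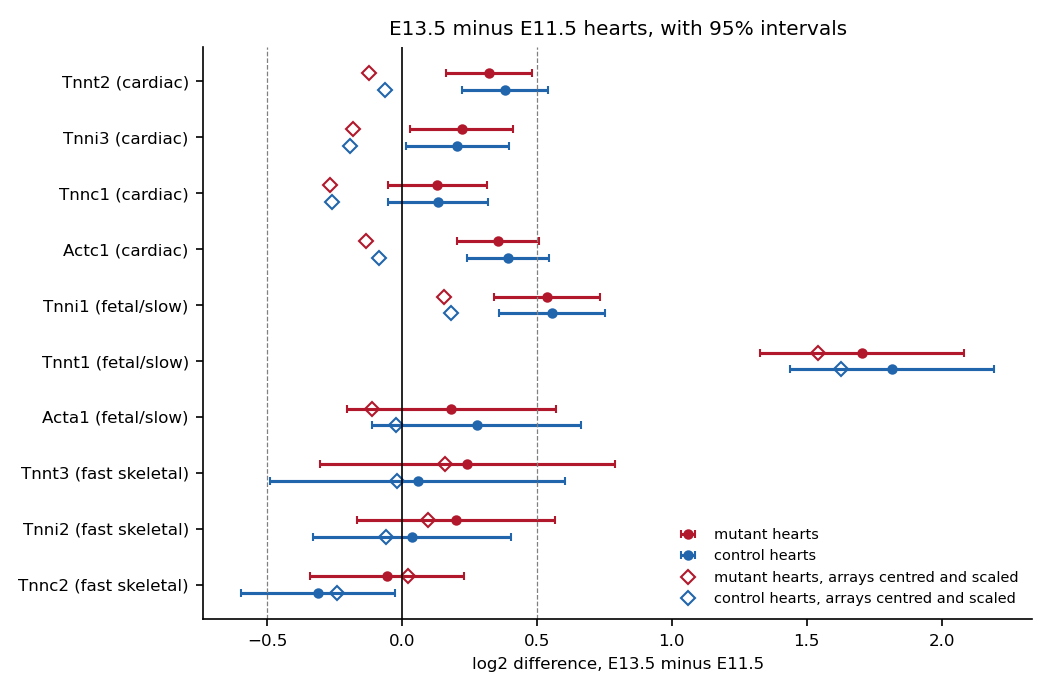
Log2 difference of E13.5 minus E11.5 hearts (x axis) for the 10 genes (y axis) in mutants (upper point of each pair) and controls (lower point), with 95% confidence intervals around the filled points. Open diamonds give the same difference after centring and scaling each array; they stay past the 0.5 threshold (dashed) for Tnnt1, at 1.54 and 1.63, and lie on the other side of 0 from the filled points for Tnnt2, Tnni3, Tnnc1, Actc1 and Acta1 in both genotypes, for Tnnt3 and Tnni2 in controls and for Tnnc2 in mutants.

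The remaining members had no call by stage. Acta1 differed by 0.18 in mutants (adjusted p = 0.439) and 0.28 in controls (adjusted p = 0.236), and by -0.11 and -0.02 after centring and scaling. Tnnt3 differed by 0.24 in mutants (adjusted p = 0.472) and 0.06 in controls (adjusted p = 0.873), and Tnni2 by 0.20 (adjusted p = 0.369) and 0.04 (adjusted p = 0.882). With the values as deposited, Tnnc2 was the only member with estimates below 0, at -0.06 in mutants (adjusted p = 0.760) and -0.31 in controls (adjusted p = 0.0741). Of the 20 skeletal muscle markers, 1 was called higher at E13.5 and 2 lower in mutants (background 17.2% and 12.7%), and 1 higher and 3 lower in controls (background 16.7% and 12.5%). Among them Ckm, the muscle creatine kinase also made in heart, was higher at E13.5 by 2.97 in mutants and 2.93 in controls, and Myod1, the myogenic regulator, was lower by stage, at -0.74 and -0.64. Their part in the rise of Tnnt1 was not tested.

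The balance of isoforms was then taken within each heart as the difference of 2 log2 values, which cancels the centring of an array. A shift of it shows unequal change of the 2 probe sets and not a ratio of transcripts. Tnni3 minus Tnni1 averaged 0.13 ± 0.07 in mutant and 0.14 ± 0.10 in control hearts at E13.5, and 0.44 ± 0.06 in mutant and 0.49 ± 0.18 in control hearts at E11.5 (SD, n = 4 each). The stages did not overlap in either genotype, and the shift of -0.32 in mutants and -0.35 in controls stayed between -0.38 and -0.29 under the other 4 scalings. The values of Tnni1 thus gained on those of Tnni3 by E13.5 in hearts of both genotypes, on each of these scales. Tnnt2 minus Tnnt1 averaged 2.93 ± 0.27 in mutant and 2.62 ± 0.27 in control hearts at E13.5, and 4.32 ± 0.22 in mutant and 4.05 ± 0.18 in control hearts at E11.5. The stages were again apart, with shifts of -1.38 in mutants and -1.44 in controls, and between -1.69 and -1.24 under the other 4 scalings. Actc1 minus Acta1 averaged 2.49 ± 0.16 in mutant and 2.47 ± 0.05 in control hearts at E13.5, and 2.32 ± 0.48 in mutant and 2.35 ± 0.13 in control hearts at E11.5, and its stages overlapped in both genotypes. Tnnc1 minus Tnnc2 shifted by 0.19 in mutants, with the stages overlapping, and by 0.45 in controls, with them apart, and after centring and scaling by -0.29 and -0.02. Between mutant and control hearts, none of these 4 balances, nor Tnni3 minus Tnni2 or Tnnt2 minus Tnnt3, separated at either stage.

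**Figure D4:**
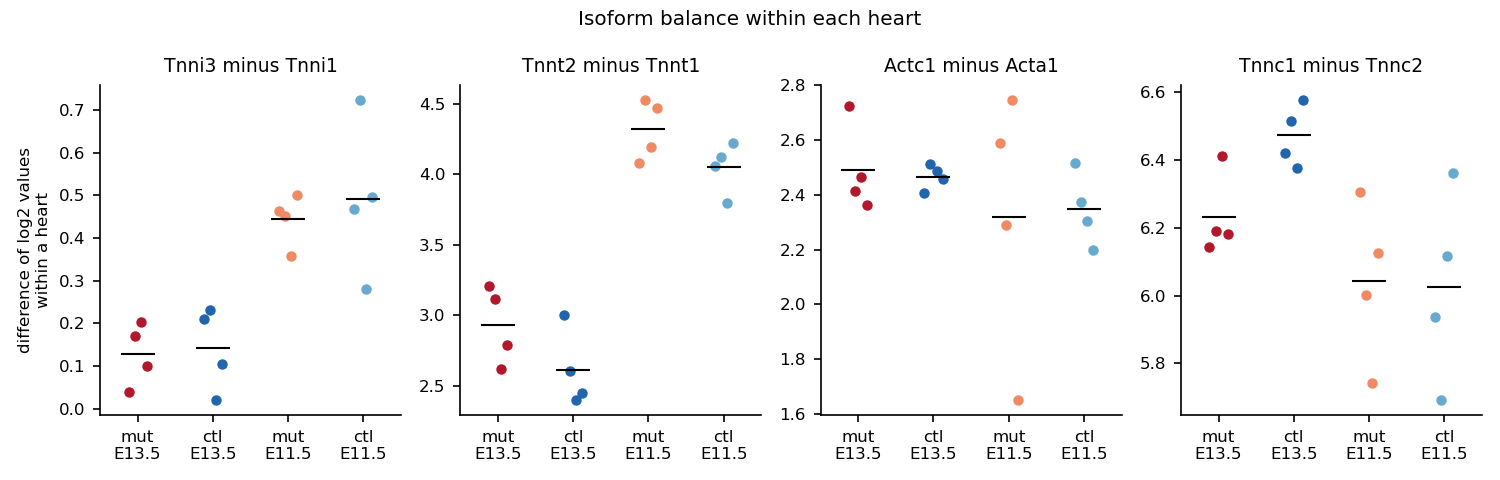
Difference of the log2 values of 2 isoforms within each heart (y axis, scaled separately and not starting at 0), by group on the x axis (mut, mutant; ctl, control), with group means as black lines (n = 4). Tnni3 minus Tnni1 and Tnnt2 minus Tnnt1 are lower in every E13.5 heart than in any E11.5 heart, and mutant and control hearts overlap within each stage.

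The spread between hearts of a group also set the isoforms apart. The pooled SD within groups was 0.04 for Actc1, 0.05 for Tnnt2, 0.09 for Tnni3, 0.09 for Tnnc1 and 0.10 for Tnni1, against a median of 0.21 over all single-gene probe sets. It was 0.18 for Tnnc2, 0.25 for Tnni2, 0.26 for Tnnt1, 0.27 for Acta1 and 0.39 for Tnnt3. Hearts of the first set thus varied less than those of the typical probe set. That set lies above the 99th percentile of brightness, and its spread was not compared with probe sets of like brightness. Deviations from the group mean, taken over the 16 hearts, moved together for Tnnt2 and Tnni1 (Pearson r = 0.70, and 0.70 without the 2 hearts farthest from the median of the gene named first) and for Tnni1 and Tnnt1 (0.68 and 0.80). They moved oppositely for Tnnt2 and Tnni2 (-0.83 and -0.77) and for Tnni1 and Tnni2 (-0.72 and -0.76). The values of a pair come from the same array and share its normalisation.

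**Figure D5:**
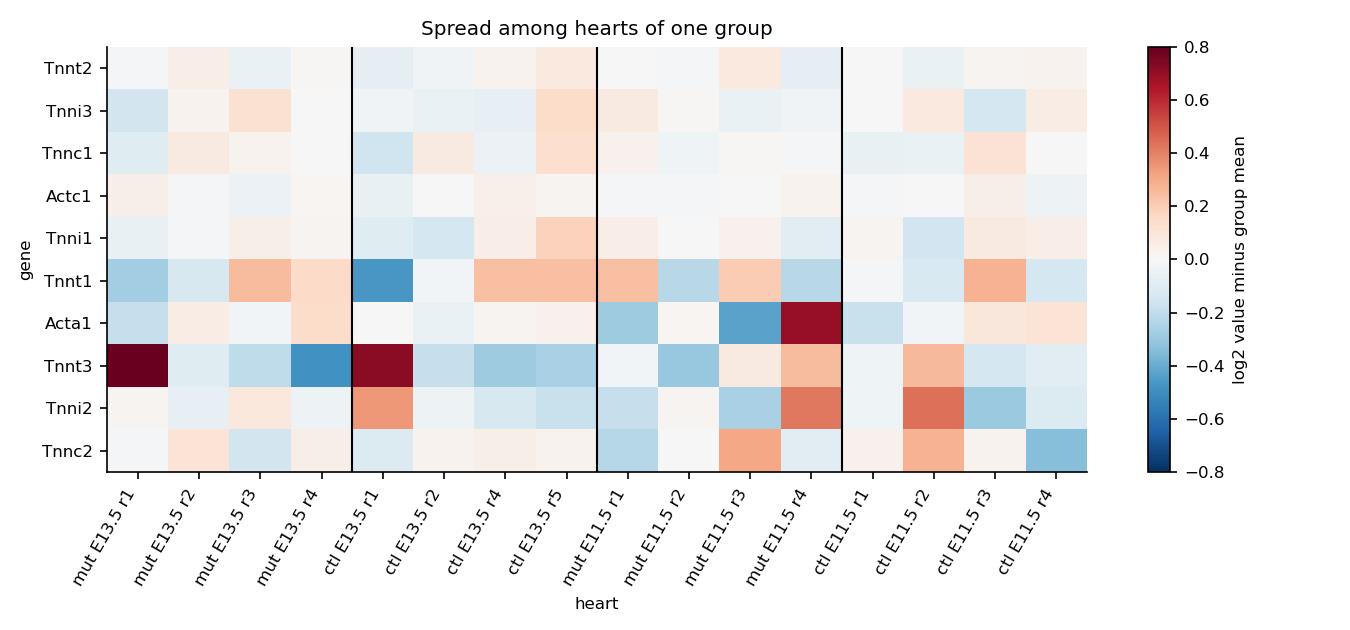
Log2 value minus the mean of its group (colour scale, log2 units) for the 10 genes (rows) in the 16 hearts (columns; mut, mutant; ctl, control; r, replicate), with lines between groups. The strongest colours are Tnnt3 in replicate 1 of both E13.5 groups and Acta1 in replicate 4 of the E11.5 mutants.

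For the 3 members that varied most within groups, the genes whose deviations were most like theirs were found among 11820 genes with probe sets above the median brightness. For Tnnt3 these were Ifitm1 (r = 0.81), Foxp2 (0.81), Tmem267 (0.79), Dapk1 (0.79) and Twist2 (0.79). Without the 2 hearts with high Tnnt3 the r of these 5 genes was 0.36 to 0.63, so the likeness rests in large part on those hearts. For Acta1 they were Dcbld1 (0.93), Tet1 (0.92), Myo18b (0.92), Tsc22d4 (0.90) and Triobp (0.89), and without replicates 3 and 4 of the E11.5 mutants their r was 0.58 to 0.79. For Tnnt1 they were Septin6 (0.87), Tmem35a (0.86), Tmem176b (0.84), Fam32a (0.82) and Fhl2 (0.82), a LIM protein of heart muscle, and without the 2 farthest hearts their r was 0.75 to 0.88. Each r is over 16 hearts, or 14 with 2 left out, and describes these hearts only. The genes were picked for the highest r in these same hearts, so high values come in part from the choice. This holds with 2 hearts left out too, and how high an r the choice alone gives was not tested.

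The rest of the thin filament was examined through 23 genes for tropomyosins, tropomodulins, leiomodins, nebulin relatives, capping proteins, Xin proteins and non-sarcomeric actins, of which 22 were measured and Actg1 was not. Between genotypes 0 of the 22 were called at E13.5 (background 0.0555%), with 3 at an unadjusted limma p under 0.05 (background 4.00%). At E11.5, 0 were called (background 0.397%), with 2 at an unadjusted p under 0.05 (background 9.55%). The smallest p values at E13.5 were those of Xirp2, a Xin actin-binding repeat protein (-0.77, adjusted p = 0.488), Nebl, which encodes nebulette (-0.44, adjusted p = 0.618), Lmod3, a leiomodin of muscle thin filaments (-0.55, adjusted p = 0.761), and Acta2, smooth muscle actin (-0.18, adjusted p = 1.00). At E11.5 they were those of the tropomodulin Tmod4 (0.59, adjusted p = 0.197), Lmod3 (-0.42, adjusted p = 0.434), Actg2, enteric smooth muscle actin (0.51, adjusted p = 0.583), and Nebl (-0.21, adjusted p = 0.638). The medians of the 22 genes were -0.04 at E13.5 and -0.02 at E11.5. The difference of effects between stages was called for 0 of the 22, with 1, Xirp2 (-0.88, adjusted p = 1.00), at an unadjusted p under 0.05 (background 3.96%).

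By stage, 8 of the 22 thin filament genes were called higher at E13.5 in mutants (background 17.2%) and 9 in controls (background 16.7%). By limma 0 were called lower in mutants (background 12.7%) or controls (background 12.5%), and at an unadjusted p under 0.05, 1 was lower in mutants, Nebl (background 21.9%), and 0 in controls (background 21.5%). Their medians were 0.31 in mutants and 0.46 in controls, against 0.04 over all single-gene probe sets in both. The smallest p values were those of the tropomyosin Tpm1 (0.87 in mutants, adjusted p = 5.25e-06, and 0.91 in controls, adjusted p = 3.61e-06), the tropomyosin Tpm4 (0.63, adjusted p = 2.19e-05, and 0.69, adjusted p = 1.04e-05) and the capping protein subunit Capza1 (0.54, adjusted p = 9.05e-05, and 0.55, adjusted p = 7.49e-05). They were followed by Capza2 in mutants (0.60, adjusted p = 0.000338) and Tmod4 in controls (1.14, adjusted p = 8.28e-05). After centring and scaling the arrays 2 of the 22 were called higher and 1 lower in mutants, and 5 higher and 0 lower in controls. Their medians were 0.14 and 0.15. With that scaling, 2926 of the 21640 single-gene probe sets were called higher and 2125 lower in mutants, and 2777 and 2151 in controls. Tpm1 was then at 0.48 in mutants and 0.54 in controls and Tpm4 at 0.31 and 0.37.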

How the data were processed

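Total RNA of 16 whole hearts was hybridised to Affymetrix Mouse Gene 1.0 ST arrays, 1 heart per array. Per the study's methods, the authors normalised the arrays by RMA in the affy package and tested them with limma, in versions not given in the sources used here. The deposited values are log2 expression values per probe set, between 2.74 and 14.6, and RMA can compress the differences of very dim and very bright probe sets. Intensities of single probes were not used here, so arrays have no depth and their number, 4 per group, limits the precision.

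Probe sets were named through the platform annotation given for this work: 21640 named 1 gene, 1321 several and 11799 none, and old symbols were updated through 21553 matched Entrez identifiers. A mean for each of the 4 groups was fitted with limma 3.58.1 in R 4.3.3 on all 16 arrays (12 residual degrees of freedom), and p-values of 5 comparisons were adjusted by Benjamini-Hochberg over all 34760 probe sets. The script was tested on simulated data. Intervals are 95% confidence intervals from the moderated fit, and "without" a heart means a fit that drops it. Figures were drawn with Python 3.11.15 and matplotlib 3.10.9. All 10 members were named, with up to 4 thin filament genes of smallest p per comparison and, for the 3 members with the largest spread within groups, the 5 genes of most like deviations. The members, the thin filament list and the marker lists of skeletal muscle, cardiomyocytes, smooth muscle, erythroid cells, endothelium, epicardium, nerve and neural crest glia, liver, and foregut and lung were chosen with earlier results of these data known. Between genotypes 0 genes of any marker list were called. By stage, in mutant and then control hearts, 2 and 4 of 12 cardiomyocyte, 1 and 1 of 6 smooth muscle and 0 and 1 of 5 erythroid markers were called. So were 0 and 0 of 5 endothelial, 1 and 1 of 5 epicardial and 2 and 0 of 3 nerve markers. The same held for 1 and 1 of 5 liver and 2 and 0 of 5 foregut and lung markers. These counts are of measured genes, in either direction. Of all single-gene probe sets, 17.2% were called higher and 12.7% lower in mutants, and 16.7% and 12.5% in controls. The alternatives were other scalings and priors, array weights, filters, a covariate of Y-linked genes, blocks and left-out hearts. No 2 arrays of a group were copies of each other (Pearson r 0.969 to 0.992).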

Additional observations from a re-analysis of the deposited data

Results flagged for a closer look

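In 2 of the 40 sets of 4 hearts (10 genes in 4 groups), 1 heart lay far from the other 3 by Dixon's test, which chance alone does in about 1 set in 20. Both were replicate 1 of the E13.5 controls, a heart that stood apart in 22 probe sets. Its Tnnt3 value was 9.36, against 8.36 to 8.46 in the other E13.5 control hearts, a gap of 0.900 of the range of the 4. Its Tnnc2 value was 6.36, against 6.50 to 6.52, a gap of 0.874 of the range. Without this heart, mutant minus control at E13.5 was 0.51 for Tnnt3 and 0.16 for Tnnc2, and neither was called.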

How the results depend on the processing

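Of the members' values under the alternatives, 1044 kept their direction and their side of the threshold, 69 changed sign and 7 were no longer called, all 7 being Tnni1 by stage. No member was called between genotypes under any alternative. The count of members called by stage was 1 (Tnnt1) in each genotype with quantile normalisation, with cyclic loess and with arrays centred and scaled. Of the 21640 single-gene probe sets, 3713 in mutants and 3620 in controls were called higher as deposited. That number was 2594 and 2541 with quantile normalisation, 2525 and 2424 with cyclic loess, and 2926 and 2777 with arrays centred and scaled. With no threshold on the size, 4 members were called in each genotype, all higher (background 26.8% in mutants and 26.2% in controls). Leaving out hearts gave a count of 1 to 2 in controls, with 1 without E13.5 replicate 5, where Tnni1 ranged from 0.49 to 0.60.

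With quantile normalisation, stage differences in mutants were -0.0084 for Tnnc1, -0.025 for Acta1, -0.0042 for Tnni2 and 0.052 for Tnnc2, and in controls -0.0026 for Tnnc1, -0.11 for Tnnt3 and -0.14 for Tnni2. With cyclic loess they were -0.062 for Tnnc1, -0.044 for Acta1, -0.027 for Tnni2 and 0.044 for Tnnc2 in mutants, and -0.015 for Tnni3, -0.087 for Tnnc1, -0.14 for Tnnt3 and -0.18 for Tnni2 in controls. With arrays centred and scaled they were -0.12 for Tnnt2, -0.18 for Tnni3, -0.27 for Tnnc1, -0.13 for Actc1, -0.11 for Acta1 and 0.023 for Tnnc2 in mutants, and -0.062 for Tnnt2, -0.19 for Tnni3, -0.26 for Tnnc1, -0.087 for Actc1, -0.022 for Acta1, -0.017 for Tnnt3 and -0.058 for Tnni2 in controls. Of these only Tnnc1 passed an adjusted p of 0.05 with the new sign (0.0310 and 0.0357). With the Y-linked covariate the control stage difference was -0.10 for Tnnt3 and -0.039 for Tnni2. No scaling moved the share of higher calls among all stage calls by over 10 percentage points.

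Between genotypes, near 0, mutant minus control at E11.5 was -0.0046 (array weights), -0.020 (quantile) and -0.022 (cyclic loess) for Tnni1, -0.042 (cyclic loess) and -0.0026 (arrays centred) for Actc1, and -0.11 for Tnnt3 with the Y-linked covariate. At E13.5 Tnni1 was 0.029 with that covariate. The labels do not say whether the replicate numbers pair the hearts. Deviations of same-numbered hearts from their group means correlated between -0.060 and 0.0082 over 7 pairs. In 0 of the 7 did both hearts correlate best with their own number, which does not settle whether they were paired. The fit with a replicate block gave 0.033 for Tnni3 and 0.035 for Tnni1 at E13.5 and changed no call. Chosen after seeing the data, leaving out the 3 hearts that stood apart gave, at E11.5, 0.0010 for Tnni3, -0.0068 for Actc1, -0.10 for Acta1 and -0.073 for Tnnt3, and by stage 0.055 for Tnnc2 in mutants and -0.18 for Tnnt3 and -0.079 for Tnni2 in controls.

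Leaving out single hearts, mutant minus control at E11.5 ranged from -0.041 to 0.039 for Tnni1, -0.17 to 0.037 for Tnnc2, -0.0086 to 0.020 for Actc1, -0.20 to 0.18 for Acta1 and -0.0017 to 0.29 for Tnni2, and at E13.5 from -0.064 to 0.026 for Tnni3, -0.057 to 0.053 for Tnni1, -0.11 to 0.0036 for Acta1 and -0.096 to 0.0023 for Tnnc1. By stage it ranged from -0.13 to 0.048 for Tnnc2 and -0.021 to 0.40 for Tnnt3 in mutants, and from -0.079 to 0.18 for Tnni2 and -0.18 to 0.15 for Tnnt3 in controls. The cause of these changes was not tested.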
